A study of Mus musculus with 4 samples.

Results

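The genes described here are the solute carriers that were expressed at 5 FPKM (fragments per kilobase of gene length, scaled to library size) or more in the series, apart from the mitochondrial carrier family Slc25. They were chosen by name (protein-coding genes whose symbol starts with Slc and a digit) and by their mean FPKM over all 4 libraries. Of 324 such genes outside Slc25, 80 reached that mean. 5 of these are left out by name, because they are melanosome, iron, glucose or lactate carriers, and 75 genes remain of 54532 in the deposited table. The mean over both groups chose them, so their expression level is a description. The rule does not use the difference between groups, but the genes were chosen with earlier results of these data known.

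Libraries labelled Piezo1KO (2) were set against libraries labelled WT (2). All 4 are labelled as mouse CD4+ T cells sorted by flow cytometry from B16 tumours, which grow from a pigmented mouse melanoma line. Piezo1 encodes a cation channel that opens under mechanical force, and the series asks about its part in the differentiation of T cells that make interleukin 9. The labels do not give the animals' age or strain, which cells lack Piezo1, or how the gene was removed. Whether each library stands for its own animal is not labelled either, and p-values therefore reflect library-to-library spread that may be technical alone. Libraries are numbered here as in their titles.

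Solute carriers are membrane proteins that move nutrients, ions, metals and metabolites across membranes without spending ATP directly. Some sit in the plasma membrane, where they set the supply of amino acids, sugars and vitamins. Others sit in lysosomes, the Golgi apparatus or secretory vesicles, and load or empty these compartments. Growing tumour cells and activated T cells are both known for high levels of the large neutral amino acid carrier made of Slc7a5 and Slc3a2.

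Whole reads were recovered from the FPKM values, with 15331499 and 13789266 reads assigned to genes in Piezo1KO 1 and 2, and 15645069 and 15892797 in WT 1 and 2. Mitochondrial genes took 20.1% and 48.3% of them in Piezo1KO 1 and 2, against 3.86% and 2.99% in WT 1 and 2. Piezo1 itself had 18.7 and 7.64 FPKM in the Piezo1KO libraries and 27.8 and 27.6 in the WT libraries (limma adjusted p = 0.166). The 12 melanocyte markers summed to 7618 and 7447 FPKM in Piezo1KO and 6964 and 6993 in WT. The sum does not stand for each marker. The log2 difference, Piezo1KO minus WT, was negative for 8 of the 12 and positive for 4, with a median of -0.204. After quantile normalisation it was negative for all 12, with a median of -1.15, where that of all genes tested was -0.070. The 14 T cell markers summed to only 16.6 and 10.4 FPKM in Piezo1KO and 2.48 and 2.30 in WT. Cd4 had 35 and 9 reads in Piezo1KO and 1 and 3 in WT, so the data go against the labelled cell type, and the carriers' values cannot be assigned to T cells. The summed FPKM of 14 macrophage and monocyte markers was 588 and 404 in Piezo1KO and 112 and 81.8 in WT, that of 8 erythroid markers 5124 and 8473 against 389 and 244, and that of 10 neutrophil markers 152 and 49.7 against 0.839 and 1.44. Of the 10 neutrophil markers 1 was at 0 in all libraries, and 2 were at 0 in both WT libraries, where no macrophage or erythroid marker was. These lists move with the groups in every result below, and their part in the carriers' values was not tested. In such bulk samples, fewer cells of a type and less RNA per cell cannot be told apart.

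Promoter sequence is shown for 4 of the carriers whose values the results turn on, a pair with higher and a pair with lower FPKM in the Piezo1KO libraries. RefSeq promoters (GRCm38.p6) were found for 61 of the 75 genes, with 86 start sites. Each sequence gives the 250 bases before the start, 5′ to 3′ on the gene's strand. Capitals mark the motifs found among those searched on both strands.
Slc3a2, chr19:8713898-8714147, minus strand: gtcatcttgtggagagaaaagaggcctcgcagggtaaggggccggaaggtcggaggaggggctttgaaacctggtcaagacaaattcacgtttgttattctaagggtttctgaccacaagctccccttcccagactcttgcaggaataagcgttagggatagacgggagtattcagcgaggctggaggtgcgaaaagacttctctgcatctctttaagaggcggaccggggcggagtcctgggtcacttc
Slc50a1, chr3:89270571-89270820, minus strand: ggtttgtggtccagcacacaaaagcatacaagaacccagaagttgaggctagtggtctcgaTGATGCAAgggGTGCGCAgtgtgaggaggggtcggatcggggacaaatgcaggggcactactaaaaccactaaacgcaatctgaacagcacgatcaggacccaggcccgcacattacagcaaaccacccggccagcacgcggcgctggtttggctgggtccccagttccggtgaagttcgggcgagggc
Slc38a2, chr15:96699729-96699978, minus strand: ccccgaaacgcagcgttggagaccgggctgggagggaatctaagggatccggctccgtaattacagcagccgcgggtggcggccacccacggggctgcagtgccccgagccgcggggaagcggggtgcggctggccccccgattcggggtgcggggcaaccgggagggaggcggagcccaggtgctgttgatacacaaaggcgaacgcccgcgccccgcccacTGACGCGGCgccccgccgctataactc
Slc23a2, chr2:132145321-132145570, minus strand: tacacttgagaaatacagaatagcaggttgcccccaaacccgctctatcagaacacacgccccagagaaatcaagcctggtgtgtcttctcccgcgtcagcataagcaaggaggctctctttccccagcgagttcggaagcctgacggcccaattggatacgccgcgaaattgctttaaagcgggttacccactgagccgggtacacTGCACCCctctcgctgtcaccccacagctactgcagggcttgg
In Slc50a1 the capitals are an amino acid response motif (TGATGNAA) followed by a metal response motif (TGCGCNC, found on the other strand). In Slc38a2 they are an antioxidant response motif (TGACNNNGC), and in Slc23a2, for the more upstream of its RefSeq starts, a metal response motif (TGCACNC). The Slc3a2 window held no match, and its start lies inside the gene as deposited, which reaches position 8723369. Over windows of 300 bases that add 50 bases after the start, TGCGCNC was present in 25 of the 86 carrier promoters (29.1%) and in 15.4% of 32851 RefSeq promoters. The E-box CACGTG was present in 14.0% against 7.15%, the hypoxia response motif GACGTG, which shares the letters ACGTG with it, in 14.0% against 6.38%, TGACNNNGC in 18.6% against 12.4%, TGCACNC in 16.3% against 12.6%, and TGATGNAA in 2.33% against 3.97%. The carrier promoters were also richer in G and C, with a median of 63.3% against 52.7%, and had a median of 19.5 CpG dinucleotides against 7. A match is a description of letters and no evidence of binding.

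Expression of the 75 genes spanned 5.01 to 127 FPKM (mean of 4 libraries), with a median of 9.55. 39 genes lay between 5 and 10 FPKM and 4 above 50. Every gene had at least 94 reads in Piezo1KO 2, the shallowest library, with a median of 705 and 350 reads per gene in Piezo1KO 1 and 2, and 1164 and 1183 in WT 1 and 2. All 75 entered the test. The genes just inside the threshold were Slc35e3 and Slc19a1 (5.01 and 5.04 FPKM), and those just outside were Slc12a9 and Slc17a5 (4.86 and 4.85). The mean of 1 group alone was below 5 FPKM for 6 genes in Piezo1KO and for 1 gene, Slc44a3, in WT.

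The most abundant carriers were Slc3a2, the heavy chain that brings several amino acid exchangers to the surface, and Slc7a5, its light chain for large neutral amino acids. Together they held 21.3% and 19.95% of the summed carrier FPKM in Piezo1KO 1 and 2, and 17.4% in both WT libraries. Slc48a1, a haem carrier of lysosomes, and Slc39a1, a zinc importer, followed with means of 61.2 and 54.3 FPKM. Slc38a10, Slc35b2, Slc9a3r1, Slc31a1, Slc6a8 and Slc38a2 came next, between 45.3 and 30.0 FPKM. Slc9a3r1 is a scaffold protein and Slc7a6os a neighbour of Slc7a6. Both bear a carrier's name and met the rule without being carriers.

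The comparison of Piezo1KO with WT libraries found no carrier that passed the test. limma on log2(FPKM + 1), fitted to 11085 genes with a mean of at least 1 FPKM, called 0 of the 75 at a Benjamini-Hochberg adjusted p under 0.05, higher or lower. Over all genes tested it called 1.1%, 0.731% higher and 0.37% lower (1.15%, 0.972% and 0.182% of those with a mean of at least 5 FPKM), so a count of 0 among 75 is near the background. The smallest adjusted p of a carrier was 0.117, of Slc35b4. At an unadjusted p under 0.05 there were 17 carriers, 2 higher and 15 lower (22.7%), against 28.6% of all genes tested (14.9% higher and 13.7% lower) and 29.5% of those with at least 5 FPKM (19.2% and 10.4%). No absolute difference of a carrier reached 1 on the log2 scale, whereas the smallest among the 122 called genes of the whole table was 1.14.

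The carriers leaned to lower values in the Piezo1KO libraries without any single call. Both Piezo1KO values lay below both WT values for 43 of 75 carriers (57.3%) and above them for 10 (13.3%), while the groups overlapped for 22. Over all genes tested the groups did not overlap for 69.4%, 35.6% lower and 33.9% higher. Among the 6582 genes with a mean of at least 5 FPKM, the level the carriers were chosen at, the shares were 71.9%, 29.3% lower and 42.5% higher. The median log2 difference, Piezo1KO minus WT, was -0.17 over the carriers, -0.0059 over all genes tested and 0.092 over those with at least 5 FPKM. The difference was negative for 57 carriers and reached 0.64 for Slc50a1, the highest. These counts describe the 75 genes and come with no list test. Rescaled by total assigned reads, the carriers' median was -0.90 and that of all genes -0.67, and 71 carriers were lower without overlap and 0 higher, where 73.0% of all genes tested were lower and 7.46% higher. Every role class then had a negative median.

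**Figure D1:**
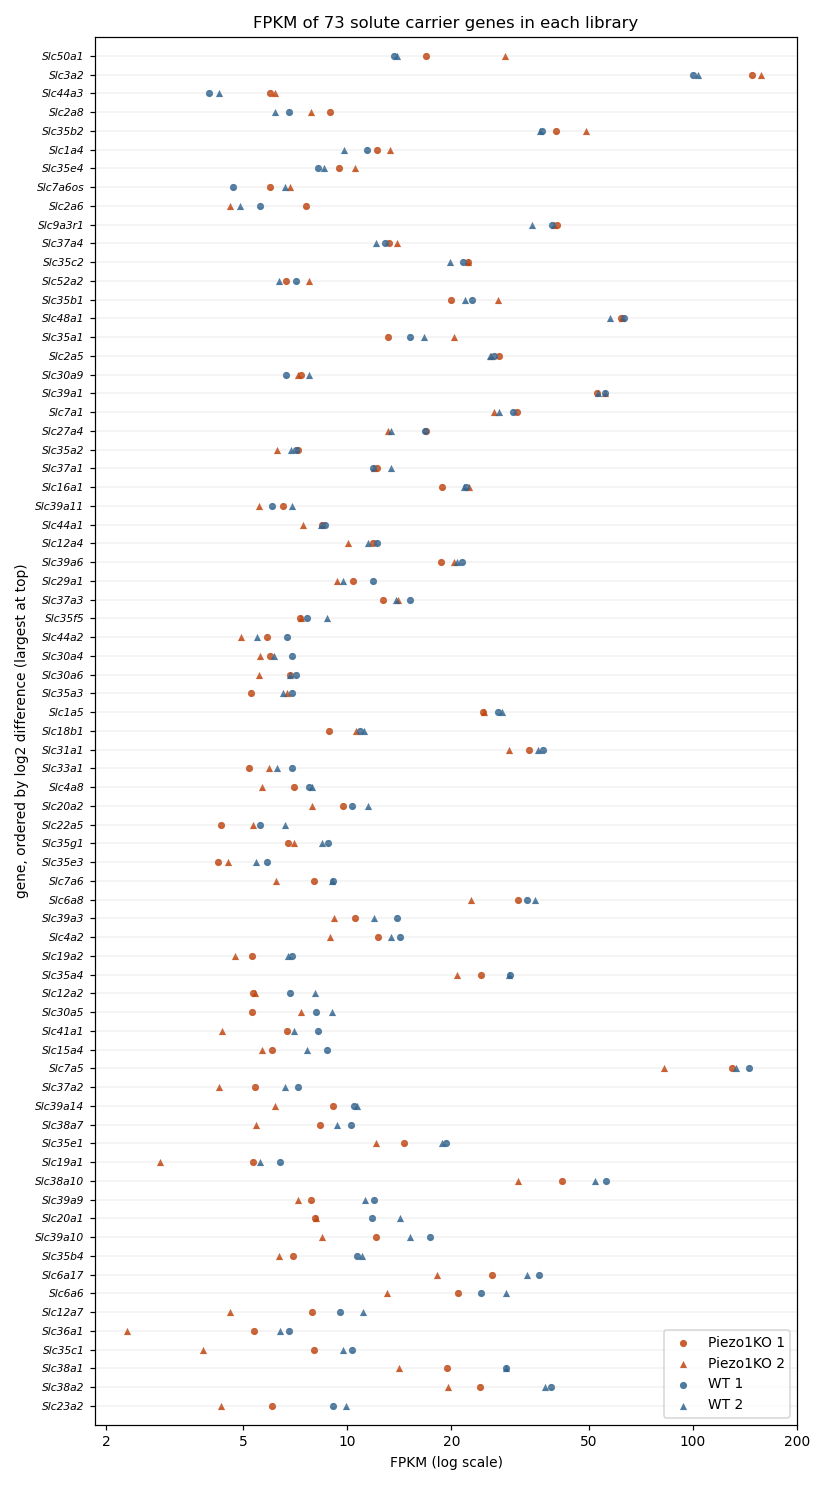
FPKM of 73 of the 75 carrier genes (rows) in Piezo1KO 1 and 2 (orange) and WT 1 and 2 (blue), on a log axis, ordered by the log2 difference between groups with Slc50a1 at the top and Slc23a2 at the bottom. In 41 rows both Piezo1KO points lie left of both WT points, and in 10 rows both lie right of them.

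**Figure D2:**
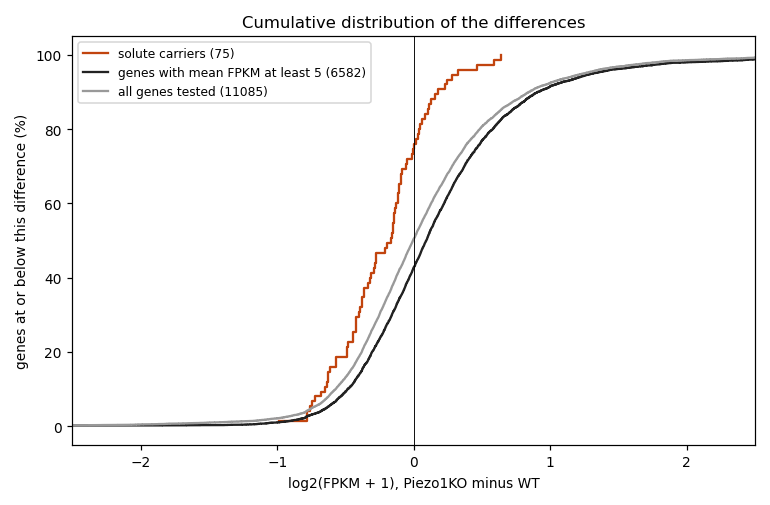
Share of genes (vertical axis, %) with a log2 difference, Piezo1KO minus WT, at or below the value on the horizontal axis, with the tails not drawn. The curve of the carriers crosses 0 at 76% of its genes, against 42.8% of genes with a mean of at least 5 FPKM and 50.4% of all genes tested.

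The Piezo1KO libraries differed from each other more than the WT libraries did. The median SD of log2 values of a carrier was 0.15 within Piezo1KO and 0.077 within WT. Over all genes tested these medians were 0.206 and 0.075, and over those with at least 5 FPKM 0.208 and 0.067. Piezo1KO 2, which had the larger mitochondrial share, was the lowest of the 4 libraries for 41 carriers (54.7%), against 39.4% of all genes tested. Piezo1KO 1 was the lowest for 18 carriers, and for 1733 of the 11085 genes tested. Of the 43 carriers lower without overlap, 31 were lower in Piezo1KO 2 than in Piezo1KO 1. For 35 carriers the Piezo1KO libraries differed by more than the groups did. The medians of the carriers against the WT mean were nevertheless close, -0.19 in Piezo1KO 2 and -0.16 in Piezo1KO 1.

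**Figure D3:**
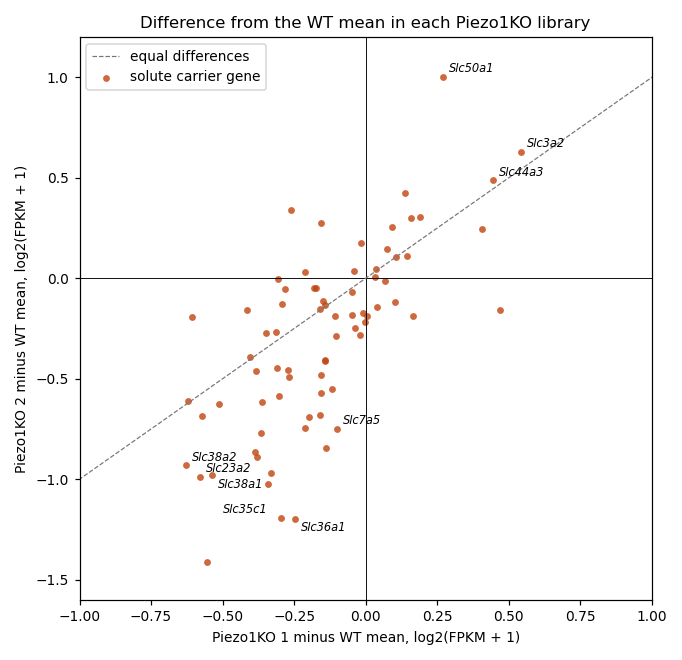
Difference of each carrier from the WT mean, in log2(FPKM + 1), in Piezo1KO 1 (horizontal) and Piezo1KO 2 (vertical), with equal differences on the dashed line. Slc3a2 and Slc44a3 lie near the line above 0, whereas Slc36a1 and Slc35c1 lie far below it. Both axes subtract the same WT mean.

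Amino acid carriers formed one of the largest role classes, with 12 genes and a median difference of -0.42, which was -0.19 without Piezo1KO 2 and -0.61 without Piezo1KO 1. None passed the test, 9 were lower and 2 higher without overlap. For this and every role class below, the shares among genes with at least 5 FPKM were 29.3% lower and 42.5% higher. The 4 genes of family Slc38, sodium-coupled carriers of glutamine and other small neutral amino acids, were all lower. Slc38a2, known to be induced when amino acids run short, had 24.3 and 19.5 FPKM in Piezo1KO 1 and 2, and 38.8 and 37.3 in WT 1 and 2. Slc38a1 had 19.5 and 14.1 FPKM in Piezo1KO and 28.7 in both WT libraries. The groups of both genes are well separated. Their differences were -0.78 ± 0.16 and -0.76 ± 0.19 (log2, standard error, limma adjusted p of 0.118 and 0.132). The genes are neighbours on the minus strand of chromosome 15 (GRCm38), Slc38a1 at 96571418 to 96642913 and Slc38a2 at 96687392 to 96699730.

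Slc38a10 had 41.7 and 31.3 FPKM in Piezo1KO and 56.0 and 52.1 in WT. Slc38a7, a lysosomal glutamine carrier, had 8.31 and 5.44 in Piezo1KO and 10.3 and 9.35 in WT. Slc36a1, a proton-coupled amino acid carrier of the lysosome, had 5.38 and 2.30 in Piezo1KO and 6.77 and 6.37 in WT. In each of these 3 genes Piezo1KO 2 was the lowest library, and Piezo1KO 1 lay nearer to WT. Their differences were -0.57, -0.48 and -0.72 (limma adjusted p of 0.158, 0.213 and 0.223). Slc15a4, a lysosomal carrier of histidine and small peptides, had 6.05 and 5.68 in Piezo1KO and 8.75 and 7.65 in WT, a difference of -0.42 (adjusted p = 0.151).

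The 2 chains of the large neutral amino acid carrier stood on opposite sides. Slc3a2 (chromosome 19, 8706882 to 8723369, minus strand) had 149 and 158 FPKM in Piezo1KO 1 and 2, and 99.7 and 104 in WT 1 and 2. Its difference was 0.59 ± 0.17 (log2, standard error; 95% interval 0.15 to 1.03; limma adjusted p = 0.140). Slc7a5 had 129.8 and 82.4 FPKM in Piezo1KO and 145 and 133 in WT, a difference of -0.43 ± 0.27 (adjusted p = 0.325). Neither gene's groups overlapped, and Slc7a5 was near WT in Piezo1KO 1 alone. Slc7a5 overlaps the protein-coding gene Gm20388, and reads there could be counted to either gene. The ratio of Slc3a2 to Slc7a5 FPKM within a library, which no scaling of the library changes, was 1.14 and 1.91 in Piezo1KO and 0.686 and 0.776 in WT. This pair was singled out after its values were seen, and the ratio was not tested. The sign of the Slc3a2 difference itself depends on scaling: it was -0.22 when rescaled by total assigned reads and -0.077 after quantile normalisation. In these settings the medians over all genes tested were -0.67 and -0.070.

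The remaining amino acid carriers had smaller differences. Slc1a5, a glutamine and neutral amino acid exchanger, had 24.7 and 24.8 FPKM in Piezo1KO and 27.3 and 28.1 in WT, a difference of -0.16 with a 95% interval of -0.50 to 0.18. Slc1a4, its close relative, had 12.2 and 13.3 in Piezo1KO and 11.4 and 9.75 in WT, a difference of 0.25. That difference was -0.50 when rescaled by total assigned reads (median of all genes tested -0.67). Slc7a1, the cationic amino acid carrier, had 31.1 and 26.5 in Piezo1KO and 30.2 and 27.5 in WT, with overlapping groups and an interval of -0.42 to 0.40. Slc7a6, which exchanges cationic for neutral amino acids, had a difference of -0.32 (adjusted p = 0.245).

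The sodium-coupled carriers of osmolytes, neurotransmitters and vitamins had a median of -0.64, and all 4 were lower without overlap. The median was -0.35 without Piezo1KO 2, and also -0.35 after removal of a length trend. Slc23a2, which takes up ascorbate, had 6.04 and 4.30 FPKM in Piezo1KO and 9.10 and 9.94 in WT, a difference of -0.78 ± 0.18 (log2, standard error; limma adjusted p = 0.127). Slc6a17, a synaptic vesicle carrier of neutral amino acids, had 26.2 and 18.1 in Piezo1KO and 35.8 and 33.1 in WT. Slc6a6, the taurine carrier, had 20.9 and 13.0 in Piezo1KO and 24.4 and 28.9 in WT. These 3 genes were lowest in Piezo1KO 2 and higher in each WT library than in either Piezo1KO library. Slc6a8, the creatine carrier, had 31.2 and 22.8 in Piezo1KO and 33.1 and 34.9 in WT, so that Piezo1KO 1 lay close to WT (difference -0.33, adjusted p = 0.293).

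Carriers of protons, anions and cations were lower in both Piezo1KO libraries in 7 of 8 cases (29.3% of genes with at least 5 FPKM). The median was -0.32 for the 4 carriers of bicarbonate, protons and inorganic anions, and -0.41 for the 4 of cations. After removal of a length trend these medians were -0.063 and -0.26. They were -0.15 and -0.25 without Piezo1KO 2, and -0.49 and -0.54 without Piezo1KO 1. Slc12a7, a potassium-chloride cotransporter, had 7.92 and 4.56 FPKM in Piezo1KO and 9.55 and 11.1 in WT, and Slc12a2, which brings in sodium, potassium and chloride, 5.35 and 5.40 against 6.80 and 8.04. The bicarbonate carriers Slc4a2 and Slc4a8 had differences of -0.36 and -0.27, and the magnesium carrier Slc41a1 had -0.42 (adjusted p of 0.248, 0.269 and 0.257). Slc4a2 overlaps Fastk, so its reads could be shared. Slc12a4 was the 1 gene whose groups overlapped.

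Both phosphate importers were lower without overlap. Slc20a1 had 8.04 and 8.11 FPKM in Piezo1KO and 11.7 and 14.2 in WT, a difference of -0.61 ± 0.15 (log2, standard error; limma adjusted p = 0.127). Its Piezo1KO libraries were nearly equal. Slc20a2 had 9.74 and 7.90 in Piezo1KO and 10.3 and 11.4 in WT, a difference of -0.28.

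Metal carriers comprised 13 genes with a median of -0.15, 8 of them lower and 0 higher without overlap. The median was -0.43 after quantile normalisation, -0.35 with scaling to reads outside mitochondrial genes and -0.88 when rescaled by total assigned reads. The 7 zinc importers of family Slc39 all had negative differences, from -0.63 to -0.0018, and the 4 zinc exporters of family Slc30 had -0.40 to 0.020. Slc39a9, a zinc importer of the Golgi, had 7.83 and 7.17 FPKM in Piezo1KO and 11.9 and 11.3 in WT, a difference of -0.57 ± 0.13 (log2, standard error; limma adjusted p = 0.123). Slc39a10 had 12.1 and 8.45 in Piezo1KO and 17.3 and 15.1 in WT. Slc39a1 was the most abundant of the zinc importers and the most level of the 75 genes, with 52.8 and 55.8 FPKM in Piezo1KO and 55.6 and 53.1 in WT. Slc48a1 also overlapped, with 61.9 and 62.4 in Piezo1KO and 63.2 and 57.5 in WT. Slc31a1, the copper importer, had 33.6 and 29.4 in Piezo1KO and 36.8 and 35.5 in WT (difference -0.20, adjusted p = 0.385). Slc39a9, Slc31a1 and Slc48a1 overlap the protein-coding genes Erh, Cdc26 and Hdac7, and reads there could be counted to either gene. When rescaled by total assigned reads every one of the 75 carriers had a negative difference. The median over all genes tested was then -0.67, and 73.0% of them were lower without overlap.

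Sugar carriers were the class of true carriers with a positive median, 0.070 over 8 genes, 3 higher and 1 lower without overlap, but this median was negative after rescaling by assigned reads, with or without mitochondrial genes, after quantile normalisation, after removal of a length trend, and without Piezo1KO 1 (-0.029). Slc50a1, a sugar exporter of the SWEET family, had 16.8 and 28.7 FPKM in Piezo1KO and 13.7 and 13.9 in WT. Piezo1KO 2 was far above the rest, and the difference of 0.64 ± 0.27 (log2, standard error; limma adjusted p = 0.199) was 0.27 without that library. After removal of a gene length trend it was 0.19, and it turned to -0.13 when rescaled by total assigned reads (median of all genes tested -0.67). Slc2a8, an intracellular glucose carrier, had 8.90 and 7.86 in Piezo1KO and 6.78 and 6.17 in WT, and Slc2a5, the fructose carrier, 27.5 and 26.0 against 26.5 and 25.8. Slc37a2, of the sugar phosphate family, had 5.40 and 4.26 in Piezo1KO and 7.21 and 6.58 in WT (difference -0.44, adjusted p = 0.163). Slc37a4, which brings glucose 6-phosphate into the endoplasmic reticulum, had a difference of 0.11. The main glucose and lactate carriers, Slc2a1 and Slc16a3, which are not among the 75, had 99.5 and 101.2 FPKM and 104 and 105 FPKM in Piezo1KO, against 68.6 and 62.2 and 79.2 and 69.3 in WT (adjusted p of 0.132 and 0.156).

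The 15 nucleotide sugar and other Golgi or reticulum carriers, 14 of them of family Slc35, were divided, with 8 lower and 3 higher without overlap and a median of -0.16, which was -0.27 without Piezo1KO 2 and -0.25 after removal of a length trend. Slc35b4, a UDP-sugar carrier, had 6.96 and 6.35 FPKM in Piezo1KO and 10.6 and 10.9999 in WT, a difference of -0.63 ± 0.13 (log2, standard error; limma adjusted p = 0.117). Slc35e1 had 14.6 and 12.1 in Piezo1KO and 19.3 and 18.7 in WT. Slc35c1, the GDP-fucose carrier, had 7.99 and 3.83 in Piezo1KO and 10.3 and 9.72 in WT, with Piezo1KO 2 far below the other libraries. On the other side, Slc35b2, which brings the sulfate donor PAPS into the Golgi, had 40.0 and 49.1 in Piezo1KO and 36.7 and 36.0 in WT, and Slc35e4 9.47 and 10.5 against 8.21 and 8.55. The differences of Slc35b2 and Slc35e4, 0.28 and 0.23, were -0.51 and -0.50 when rescaled by total assigned reads (median of all genes tested -0.67).

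The vitamin, choline and nucleoside carriers had 7 genes and a median of -0.11, with 1 higher and 2 lower without overlap. The median was 0.12 after removal of a length trend, and leaving out 1 library moved it between -0.25 without WT 2 and -0.022 without WT 1. Slc44a3, of the choline carrier-like family, had 5.97 and 6.17 FPKM in Piezo1KO and 3.98 and 4.26 in WT, a difference of 0.47 ± 0.13 (log2, standard error; limma adjusted p = 0.135). Since its WT mean was below 5 FPKM, it met the rule through its Piezo1KO values. When rescaled by total assigned reads the difference was -0.20 (median of all genes tested -0.67). The folate carrier Slc19a1 had 5.33 and 2.87 in Piezo1KO and 6.39 and 5.57 in WT, and the thiamine carrier Slc19a2 5.30 and 4.73 against 6.91 and 6.71. The nucleoside carrier Slc29a1, the riboflavin carrier Slc52a2 and the choline carrier Slc44a1 overlapped between groups. So did the monocarboxylate carrier Slc16a1, with 18.8 and 22.4 FPKM in Piezo1KO and 22.1 and 21.7 in WT, and the fatty acid carrier Slc27a4. The carnitine carrier Slc22a5 and the vesicular polyamine carrier Slc18b1 were lower without overlap, at -0.29 and -0.17 (adjusted p of 0.283 and 0.436).

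**Figure D4:**
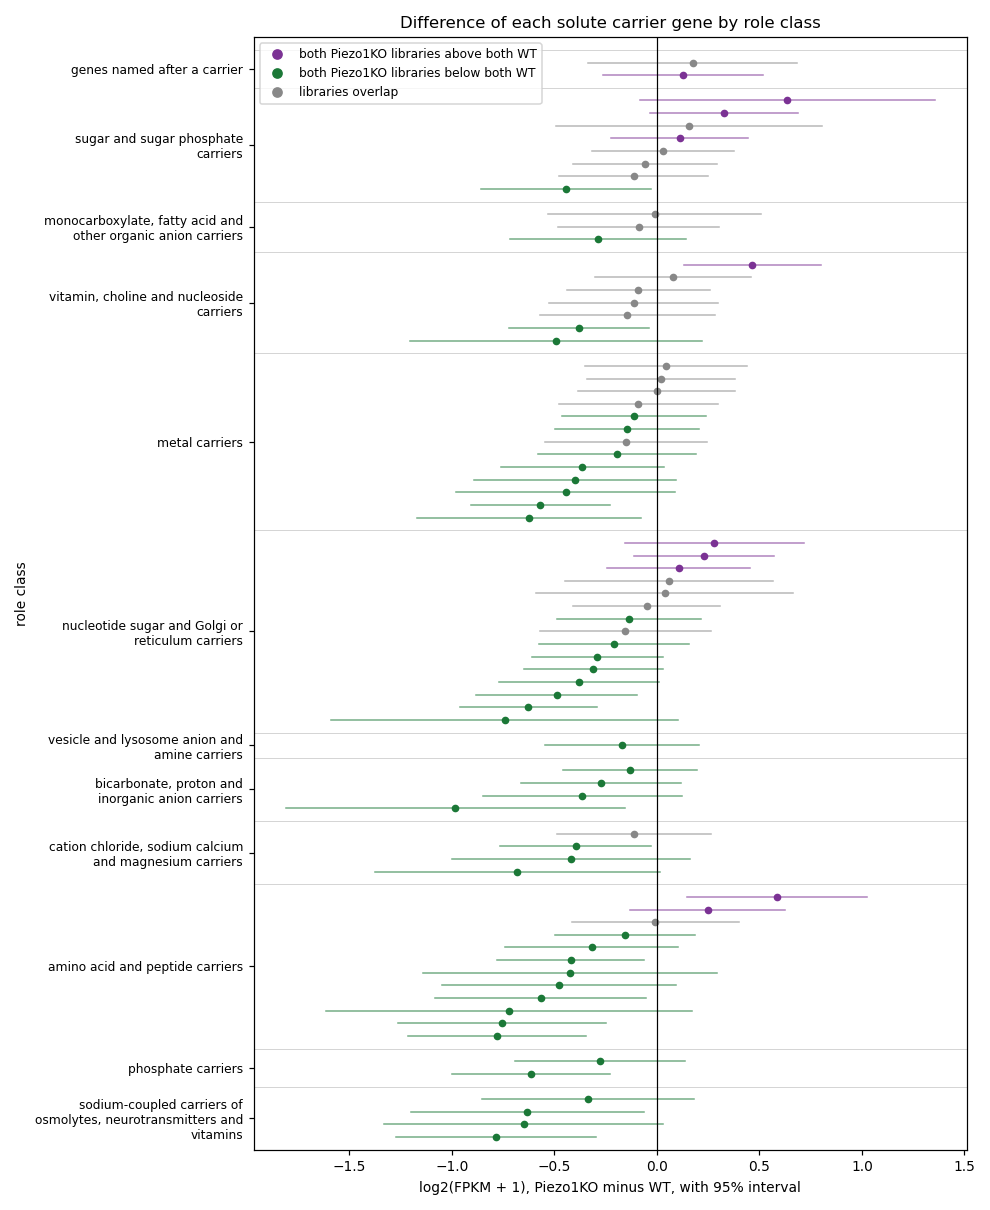
Log2 difference, Piezo1KO minus WT, of each of the 75 genes with its 95% interval from limma, grouped by role class and ordered by class median with the highest at the top. Colours show whether both Piezo1KO libraries lie above both WT libraries (10 genes), below them (43) or overlap (22).

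The size of the difference varied with gene length among the carriers as it did in the whole table. Spearman's rho between the log2 difference and gene length was -0.55 over the 75 genes and -0.52 over all genes tested, given as a description because these genes share their libraries. The 38 carriers of up to 4426 bases had a median of -0.090. The 37 longer ones had a median of -0.42. All genes tested had medians of 0.23 up to that length and -0.23 above it. With the length trend removed from every library, the median of the carriers was -0.20 and that of all genes -0.0034, and 0 carriers passed.

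**Figure D5:**
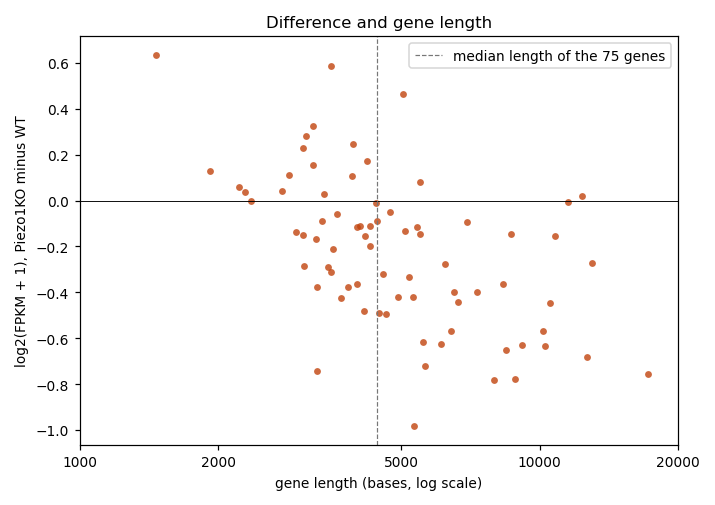
Log2 difference, Piezo1KO minus WT (vertical), against gene length in bases (horizontal, log axis) for the 75 genes. Points right of the dashed line, which marks the median length of 4426 bases, lie lower, with a median of -0.42 against -0.090 for the others.

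The calls depended on single libraries. Without Piezo1KO 1, 35 carriers passed (31 lower and 4 higher), where 52.9% of all genes tested passed. Without Piezo1KO 2, 7 passed (6 lower and 1 higher), where 14.2% of all genes passed. The median difference of the carriers was -0.19 without Piezo1KO 1 and -0.16 without Piezo1KO 2. Over all genes tested it was -0.011 and -0.0025. Both fits share the same WT libraries and hold 1 Piezo1KO library each, which is assumed to vary like the WT libraries. Without WT 1 or without WT 2, 0 carriers passed and 0 had an unadjusted p under 0.05.

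Genes that work with carriers were also described, from lists chosen with earlier results of these data known. Over all genes tested, 33.9% were higher and 35.6% lower without overlap. The median over all genes tested was -0.67 when rescaled by total assigned reads. Of 23 tested carrier partners, pumps and regulators, 1 passed, where 1.1% of all genes tested passed. Without overlap, 8 were higher and 7 lower, and the median was 0.13. That median was -0.015 without Piezo1KO 2, -0.17 after quantile normalisation and -0.68 when rescaled by total assigned reads. Fxyd5, a regulator of the sodium-potassium pump, rose by 1.88 ± 0.13 (log2, standard error; limma adjusted p = 0.0318), with 13.0 and 14.5 FPKM in Piezo1KO and 3.06 and 2.91 in WT. Its adjusted p was 0.367 without WT 1 and 0.452 without WT 2, 0.171 with no filter on low genes, 0.0506 when rescaled by total assigned reads and 0.0605 after removal of a length trend. Of the 16 subunits of the V-ATPase, the pump that acidifies lysosomes and vesicles, 0 passed. Without overlap, 12 were higher and 2 lower, where the shares among genes with at least 5 FPKM were 42.5% and 29.3%. Their median of 0.43 was 0.23 without Piezo1KO 2. It was -0.051 after quantile normalisation and -0.37 when rescaled by total assigned reads. Atp6v0e had 32.4 and 43.5 FPKM in Piezo1KO and 23.4 and 20.6 in WT (adjusted p = 0.134), and Atp6v1h 10.1 and 10.9 against 7.11 and 6.76 (adjusted p = 0.126). Of 31 tested genes of amino acid sensing by the kinase mTORC1, 0 passed, 7 were higher and 16 lower without overlap, and the median was -0.19. That median was 0.0042 over the 21 genes with a mean of at least 5 FPKM, -0.087 after removal of a length trend and -0.88 when rescaled by total assigned reads. Fnip2 and Fnip1, partners of folliculin, had 4.605 and 4.87 FPKM and 4.43 and 5.14 FPKM in Piezo1KO, against 9.27 and 9.60 and 9.52 and 8.59 in WT (adjusted p of 0.0741 and 0.0962).

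Among 10 tested plasma membrane ABC transporters, which do spend ATP, 0 passed. Without overlap, 0 were higher and 8 lower (33.9% and 35.6% of all genes tested). Their median of -0.45 was -0.22 without Piezo1KO 2 and -0.20 after removal of a length trend. Abcc5 had 3.49 and 3.19 FPKM in Piezo1KO and 5.49 and 5.76 in WT, and Abcc10 1.92 and 1.26 against 3.53 and 4.08 (adjusted p of 0.118 for each). Of 10 tested genes of metal handling, 0 passed, and 6 were higher and 3 lower without overlap. Their median of 0.37 was -0.033 after removal of a length trend. It was -0.35 after quantile normalisation and -0.42 when rescaled by total assigned reads (all genes tested -0.070 and -0.67). The metallothionein genes Mt2 and Mt1, which buffer zinc and copper, had 73.9 and 97.8 FPKM and 375 and 803 FPKM in Piezo1KO, against 33.6 and 30.0 and 155 and 169.5 in WT (adjusted p of 0.0742 and 0.127). The groups of both metallothioneins are far apart, although neither passed.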

How the data were processed

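RNA was measured by sequencing in 4 libraries, 2 labelled Piezo1KO and 2 labelled WT. Per the labels' protocols, total RNA from a column kit went into a SMARTer mRNA library kit, with no strand setting given. The submitters' processing notes name fastp 0.19.7 for read cleaning, featureCounts 1.5.0-p3 for counting, and the build mm10, also called GRCm38. Neither these notes nor the labels name an aligner or an annotation release. The authors deposited 1 FPKM value per gene and library, and the library size they scaled to is not stated. Whole reads were recovered from FPKM times length (100% of values whole, tolerance 0.05 reads). The library size this implies, over assigned reads, was 0.962 and 0.544 in Piezo1KO 1 and 2, and 1.26 and 1.28 in WT 1 and 2. Over median-ratio size factors, and divided by the mean, it was 1.004 and 0.998 in Piezo1KO, and 1.001 and 0.997 in WT. The deposited scaling thus nearly equals median-ratio scaling, which by itself holds the median difference over all genes near 0.

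log2(FPKM + 1) was tested with limma 3.58.1 in R 4.3.3 (lmFit, eBayes with an intensity trend, 2 residual and 2.59 prior degrees of freedom), two-sided, without a block, for 11085 genes with a mean of at least 1 FPKM, and p-values were adjusted by Benjamini-Hochberg over all of them. Differences on this scale understate changes of low genes. No exact test of 2 against 2 can go below p = 0.333. The test was tried on simulated data.

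The members, gene lists and role classes (by family number, with Slc7a6os and Slc9a3r1 set apart later) were chosen with earlier results of these data known. Named by rule were the 8 highest and 8 lowest members without overlap between groups, the 10 most abundant, 2 per class by p, 5 key amino acid carriers and a glucose carrier where they were members, those next to the threshold, and from each further list the genes that passed or else the 2 of smallest p. Other members are given to complete their class, chosen after their values were seen. 12 of the 75 genes, Slc7a5, Slc15a4, Slc19a1 and Slc20a2 among them, overlap another protein-coding gene, which can share reads where strand was not used. 72 had the same coordinates in GENCODE M21. 2 of the 75 enter all counts and medians but are not reported here one by one.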

Additional observations from a re-analysis of the deposited data

How the results depend on the processing

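No carrier passed limma's test with a pseudocount of 0.1, no filter, a mean of at least 5 FPKM, no intensity trend, a robust prior, quantile normalisation, median-ratio size factors, scaling to reads outside mitochondrial genes, voom on recovered reads, protein-coding genes alone, or the length trend removed (added after seeing the data). The setting with median-ratio size factors nearly repeats the main fit, because the deposited scaling almost equals it. The whole table had 127 calls there, against 122. When rescaled by total assigned reads 17 passed, all lower, where 15.4% of all genes tested passed. Leaving out 1 library gave 0 to 4 carriers higher and 0 to 31 lower in limma, and 13 to 16 higher and 46 to 53 lower without overlap (all genes tested 39.1% to 45.4% higher and 40.3% to 46.9% lower). The count higher without overlap was 5 after quantile normalisation (28.1% of all genes), 4 with scaling to reads outside mitochondrial genes (22.6%) and 0 with scaling to all assigned reads (7.46%), where 71 were lower (73.0%).

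The carriers' median of -0.17 was -0.29 after quantile normalisation, -0.38 with scaling to reads outside mitochondrial genes (all genes -0.20), -0.90 with all assigned reads, and -0.20 both in voom and after removal of the length trend. Leaving out 1 library gave -0.22 to -0.16. The sample number as a replicate block gave a median of -0.17, 0 carriers passing and 264 genes of the whole table against 122. The whole table had 192 calls after quantile normalisation, 1707 with all assigned reads, 7 with the length trend removed and 1 with no filter. Without WT 1 or WT 2 it had 0, with 723 and 616 genes at an unadjusted p under 0.05. Same-numbered libraries did not deviate together (r = -0.033 over tested genes), so the numbers were not taken as pairs.

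With all assigned reads the sign turned for 10 of 40 named members, which were all those with a positive difference: Slc50a1, Slc44a3, Slc3a2, Slc2a8, Slc1a4, Slc35e4, Slc35b2, Slc7a6os, Slc9a3r1 and Slc48a1 had -0.13, -0.20, -0.22, -0.38, -0.50, -0.50, -0.51, -0.51, -0.66 and -0.76. In that setting the median over all genes tested was -0.67. With reads outside mitochondrial genes, Slc7a6os, Slc9a3r1 and Slc48a1 had -0.019, -0.092 and -0.18. After quantile normalisation, Slc3a2, Slc35b2, Slc9a3r1 and Slc48a1 had -0.077, -0.078, -0.22 and -0.43. With the length trend removed, Slc48a1 and Slc9a3r1 had -0.12 and -0.20. Slc39a1 had 0.00069 with median-ratio size factors. Leaving out 1 library gave -0.21 to 0.033 for Slc16a1, -0.040 to 0.036 for Slc39a1, -0.039 to 0.39 for Slc7a6os and -0.023 to 0.11 for Slc48a1.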

Other observations

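Besides the 75, 59 Slc genes outside Slc25 entered the same test, 5 of them left out by name and the others below 5 FPKM. None passed, and 11 were higher and 29 lower in both Piezo1KO libraries than in both WT libraries. These are 18.6% and 49.2%, against 33.9% and 35.6% of all genes tested. Their median log2 difference was -0.16, against -0.17 for the 75. Slc5a6, which takes up biotin and pantothenate, had 1.33 and 0.903 FPKM in Piezo1KO and 2.74 and 3.19 in WT (limma adjusted p = 0.117). Slc45a4 had 3.61 and 2.55 in Piezo1KO and 6.28 and 6.07 in WT (adjusted p = 0.118). Slc22a18 had 4.55 and 4.40 in Piezo1KO and 2.60 and 3.04 in WT (adjusted p = 0.135). Of the 324 genes, 68 had no read in any library. Slc7a11, the cystine carrier, had 1.48 and 1.32 FPKM in Piezo1KO and 1.06 and 1.09 in WT, and Slc2a3, a glucose carrier, 4.23 and 3.13 against 3.48 and 3.91. These genes were picked after their values were seen, apart from Slc7a11 and Slc2a3.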
